A study of Homo sapiens with 30 samples.

Results

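The genes described here are the cytosolic and mitochondrial heat shock proteins: the chaperones HSP90, HSP70, HSP110 and HSP60 with their partners, the small heat shock proteins, the cytosolic chaperonin TRiC and the heat shock factors. The list holds 38 genes, found by current symbol or older alias among probe sets annotated with a single gene. Of these, 27 had such a probe set, and the brightest one stood for the gene. The upper 60% of the 12690 genes on the array by mean signal were tested, and 23 of the 38 were among these 7614 genes. HSPA1L, HSPA2, HSPA6 and DNAJA3 were too dim. HSPA1A, HSPA1B and DNAJB6 were read only by probe sets shared with other genes. HSPA4L, HSPA8, HSPB1, BAG2, HSF2, AHSA1, FKBP4 and CCT2 were not matched to a probe set and are not analysed here. Most of the inducible cytosolic HSP70 genes are thus outside the values below.

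The study asked how VHL and p53 genotype bear on the response of cultured human carcinoma cells to hypoxia, with 30 arrays of total RNA on a custom Affymetrix chip. RCC4 is a renal carcinoma line, compared as vhl null cells and as cells with wild-type VHL put back, called VHL-restored here. H1299 is a non-small cell lung cancer line that is p53 null, compared with H1299 given p53 again. HCT116 is a colon carcinoma line whose p53 null cells were set beside p53 wild-type ones. All cells grew as standard monolayers and were made hypoxic in an anoxic incubator with under 0.01% oxygen. RCC4 of each genotype was sampled at 0, 1, 2, 4, 6 and 18 h of hypoxia and after 18 h followed by 1 h or 4 h of reoxygenation, on 20 arrays. H1299 was sampled at 0 h and 24 h on 4 arrays and HCT116 at 0, 12 and 24 h on 6 arrays. Only RCC4 at 0 h and 18 h had replicates, 2 per genotype, and every other group was a single array. The labels name no clone, vector or pool, so each genotype is 1 cell population. The series text names independent replicates, and whether they were separate cultures is not stated. P-values therefore measure the spread between these samples only. In RNA from a whole culture, fewer cells of a kind and less RNA per cell cannot be told apart.

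HSP70 proteins bind short hydrophobic stretches of unfolded proteins and are driven by J-domain proteins, which start ATP hydrolysis, and by nucleotide exchange factors such as HSP110 and the BAG proteins, which release the client. HSP90 takes over many clients from HSP70 through the co-chaperone STIP1 (HOP), TRiC folds actin and tubulin, and HSP60 with HSP10 folds proteins imported into mitochondria. Many of these genes are switched on by the factor HSF1, which binds heat shock elements made of GAA units in alternating orientation, while many genes induced by the hypoxia factor HIF carry the core ACGTG or GCGTG.

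Promoter windows from 250 bases before to 50 bases after each start were taken from RefSeq (GRCh38.p14), which held 34 of the 38 genes. Both strands were searched for the unit pairs GAANNTTC and TTCNNGAA, for the full element, which is GAANNTTC followed by NNGAA, and for the hypoxia cores ACGTG and GCGTG. The full element contains both pairs, so these matches overlap. It was found in 8 of the 34 genes, against 0.608% of the 27305 genes in the table. These were HSP90AA1, HSP90AB1, CHORDC1, DNAJA1 and HSPD1, which were tested, and DNAJB6, HSPA6 and HSPA8, which were not. The pair GAANNTTC occurred in 17 and TTCNNGAA in 12 of the 34 genes, against 8.21% and 9.46% of all genes. Either hypoxia core occurred in 22 of the 34 genes, against 52.4% of all genes. The members had been listed as heat shock genes, so a high share with the element describes the list.

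The promoters of the genes on which the results turn are printed 5′ to 3′ on the gene's own strand, from 250 bases before to 30 bases after the start. Where a gene had several windows, the one with the full element is printed. Capitals mark the full element or its reverse complement in HSP90AA1, HSP90AB1, DNAJA1 and CHORDC1, and ACGTG or its reverse complement in HSPA4 and HSPE1. HSPH1 held none of the motifs searched. In HSP90AA1 (chr14:102087015-102087294, minus strand) the element lay 88 to 76 bases before the start. HSP90AB1 (chr6:44247693-44247972, plus strand) had it at 165 to 153 and at 112 to 100 bases before the start. In DNAJA1 (chr9:33025023-33025302, plus strand) it lay at bases 4 to 16 of the transcript. CHORDC1 (chr11:90223020-90223299, minus strand) had 3 overlapping matches between 60 and 38 bases before the start. HSPA4 had ACGTG at 132 to 128 bases before the start, and HSPE1 had overlapping matches on both strands between 22 and 17 bases before it. The windows of HSPA4 (chr5:133051763-133052042, plus strand), HSPH1 (chr13:31162359-31162638, minus strand) and HSPE1 (chr2:197500129-197500408, plus strand) held neither the element nor the pairs. The 300-base windows of HSPE1 and of HSPD1, which is read from the opposite strand, shared 204 bases. A match is a stretch of letters, and binding was not measured.
HSP90AA1: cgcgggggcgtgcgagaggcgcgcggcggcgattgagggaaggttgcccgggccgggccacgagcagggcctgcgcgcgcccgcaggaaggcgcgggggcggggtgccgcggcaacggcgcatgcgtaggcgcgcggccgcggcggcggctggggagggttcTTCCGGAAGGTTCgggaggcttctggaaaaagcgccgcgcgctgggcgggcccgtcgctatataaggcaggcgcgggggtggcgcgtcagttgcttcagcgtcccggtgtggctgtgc
HSP90AB1: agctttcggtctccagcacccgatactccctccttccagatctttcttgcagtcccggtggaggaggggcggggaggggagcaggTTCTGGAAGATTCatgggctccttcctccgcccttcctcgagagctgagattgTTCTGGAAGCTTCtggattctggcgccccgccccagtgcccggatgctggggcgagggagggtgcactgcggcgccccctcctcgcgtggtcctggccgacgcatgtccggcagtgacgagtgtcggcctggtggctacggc
HSPA4: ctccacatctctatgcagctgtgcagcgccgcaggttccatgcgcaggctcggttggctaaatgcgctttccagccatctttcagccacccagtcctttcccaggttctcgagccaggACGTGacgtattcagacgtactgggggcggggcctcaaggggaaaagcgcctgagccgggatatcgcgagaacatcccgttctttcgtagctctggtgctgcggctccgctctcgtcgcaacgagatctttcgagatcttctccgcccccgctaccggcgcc
HSPH1: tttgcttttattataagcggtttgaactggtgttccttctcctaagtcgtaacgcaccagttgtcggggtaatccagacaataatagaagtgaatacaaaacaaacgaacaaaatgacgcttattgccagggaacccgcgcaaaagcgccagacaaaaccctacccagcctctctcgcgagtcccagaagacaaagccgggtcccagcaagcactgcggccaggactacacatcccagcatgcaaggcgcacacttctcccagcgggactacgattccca
HSPE1: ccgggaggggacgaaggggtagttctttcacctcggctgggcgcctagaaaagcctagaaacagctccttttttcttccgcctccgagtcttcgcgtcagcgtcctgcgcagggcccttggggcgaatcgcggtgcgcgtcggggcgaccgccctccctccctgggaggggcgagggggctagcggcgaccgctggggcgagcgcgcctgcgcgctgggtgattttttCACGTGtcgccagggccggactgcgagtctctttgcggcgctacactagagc
DNAJA1: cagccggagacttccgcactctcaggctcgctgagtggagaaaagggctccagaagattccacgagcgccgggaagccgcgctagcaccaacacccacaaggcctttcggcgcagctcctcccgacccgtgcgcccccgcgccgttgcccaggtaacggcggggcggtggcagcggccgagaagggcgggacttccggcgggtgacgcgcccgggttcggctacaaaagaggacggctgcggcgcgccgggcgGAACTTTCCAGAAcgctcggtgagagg
CHORDC1: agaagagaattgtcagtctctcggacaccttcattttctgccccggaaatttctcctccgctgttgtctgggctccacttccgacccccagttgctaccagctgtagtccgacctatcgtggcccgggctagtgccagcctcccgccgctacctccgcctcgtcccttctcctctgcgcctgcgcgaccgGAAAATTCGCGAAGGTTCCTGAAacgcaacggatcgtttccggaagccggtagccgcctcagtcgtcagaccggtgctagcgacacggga

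Array signals were deposited as linear intensities in whole numbers, with a scaling and a null entry that the labels do not explain. Blank control entries divide the arrays into 2 sets. The 18 arrays of set 1 (replicate 1 of RCC4 at 0 h and 18 h, RCC4 at 2 h and 6 h, all H1299 and HCT116) had median listed intensities of 145 to 174, and the 12 of set 2 (replicate 2, the 1 h and 4 h arrays, reoxygenation) of 201 to 222. Intensities below are therefore compared within a set. Set 1 is not uniform: its RCC4 arrays at 0 h and 18 h had 5 blank entries each, and its other arrays 6. Comparisons of RCC4 at 0 h with H1299, HCT116 or RCC4 at 2 h and 6 h cross this difference also within set 1. What it marks is not stated. Levels are log2(intensity + 16) minus the median gene of the array. A difference of levels is smaller than the change of a dim gene, because of the added 16. In ADM, a gene induced by hypoxia, intensity went from 53 and 116 at 0 h to 516 and 765 at 18 h in VHL-restored RCC4, and from 53 and 64 at 0 h to 593 and 726 at 24 h in HCT116. Of the 3 renal markers measured, only 1, PAX8, set RCC4 apart and was above the array median there. PAX8 read 272 to 564 on the RCC4 arrays and 105 to 155 on those of H1299 and HCT116. LRP2 read 5 to 74 in RCC4 and 22 to 76 in the other lines, and AQP1 at most 29 on any array. The colon and lung lists did not set HCT116 or H1299 apart. The colon markers KRT20 and GPA33 were null on all HCT116 arrays.

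Several arrays went against their labels. Of 9 hypoxia check genes, 9 were higher at 24 h than at 0 h in H1299 p53 null cells and 0 in H1299 p53 wild-type cells. ADM read 120 and 215 at 0 h and 24 h in the null cells, and 207 and 132 in the cells labelled p53 wild type. Across the tested genes, the array labelled p53 wild type 0 h correlated at 0.987 with the p53 null 24 h array and at 0.971 with its own 24 h array. In the VHL-restored RCC4 cells, the median level of the check genes was 1.67 at 1 h and 1.88 at 4 h, near or above the 1.5 and 1.69 at 18 h, while it was 0.63 at 2 h and 0.98 at 6 h. In VHL-null cells it was already 1.31 and 1.11 at 0 h, against -0.32 and 0.22 in VHL-restored cells, so the 0 h arrays of the 2 genotypes do not start from the same state. The calls that use the H1299 arrays or the 1 h and 4 h arrays are also counted without them, with values given for only some genes. In the fits within RCC4 the 0 h arrays were left out 1 at a time only.

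In VHL-restored RCC4, 18 h of hypoxia came with lower levels of HSP110, of HSP70 family member HSPA4, of the J-domain protein DNAJA1, of the inducible HSP90 HSP90AA1 and of the mitochondrial HSP10, HSPE1. These 5 of 23 genes fell when the replicate number was kept as a block, and no member rose. The background under the same test was 6.58% of genes called, 3.7% higher and 2.88% lower. Without the block 0 of 23 were called, against 0.0394% of all genes, and 4 members had an unadjusted p under 0.05. At 0 h and 18 h the replicate number is also the array set, so the block takes out the difference between sets. The median difference was -0.16 over the 23 members and 0.05 over all genes, and 5 of 23 members were positive against 65.4% of all genes.

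HSP90AA1, the stress-inducible cytosolic HSP90, had intensities of 1116 and 1727 at 0 h and 577 and 1317 at 18 h in replicates 1 and 2 of the VHL-restored cells. In each replicate the 18 h value was the lower one. The levels of HSP90AA1 were 2.79 and 2.88 at 0 h and 1.89 and 2.55 at 18 h, without overlap. Its level fell by 0.61 on the log2 scale, or 1.53-fold (SE 0.258 without and 0.123 with the block, adjusted p = 0.00509 with it, n = 2 per time). HSP90AB1, the constitutive form, read 889 and 1578 at 0 h and 880 and 1539 at 18 h, a difference of 0.02 (adjusted p = 0.944). Both forms thus carried the element in their promoters and had different values at 18 h, and the difference between them was not tested. The HSP90 partners CHORDC1 and STIP1 differed by -0.24 and -0.16 (adjusted p = 0.217 and 0.537).

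HSPH1, the HSP110 that acts as an exchange factor and holds unfolded proteins, read 506 and 783 at 0 h and 199 and 396 at 18 h. Both 18 h values lay below both 0 h values. This was the member with the largest difference, a fall of 1.07 on the log2 scale or 2.1-fold (block SE 0.121, adjusted p = 2.94e-05 with the block), with -1.24 and -0.90 in the 2 replicates. HSPA4, another exchange factor of the HSP110 group, read 462 and 820 at 0 h and 243 and 558 at 18 h. It was lower at 18 h in each replicate, by 0.67 on average or 1.59-fold (block SE 0.117, adjusted p = 0.00181). HSPA14, an HSP70 of the ribosome-associated complex, differed by 0.06 (adjusted p = 0.875).

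DNAJA1, a type I J-domain partner of HSP70, read 377 and 606 at 0 h and 187 and 376 at 18 h. Its levels were 1.26 and 1.4 at 0 h and 0.34 and 0.79 at 18 h, without overlap. It fell by 0.76, or 1.7-fold (block SE 0.114, adjusted p = 0.000449). The related DNAJA2 differed by 0.12 (adjusted p = 0.679). DNAJB1, the classic heat-inducible HSP40, read 491 and 725 against 403 and 524, a difference of -0.32 that was not called (adjusted p = 0.0823). DNAJB4, BAG1 and BAG3, the last 2 being exchange factors of HSP70, differed by -0.08, -0.01 and -0.26, and none of them was called.

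HSPE1, the HSP10 lid of the mitochondrial chaperonin, read 301 and 711 at 0 h and 145 and 339 at 18 h. The fall was 0.96, or 1.94-fold, and nearly the same in both replicates, at -0.97 and -0.94 (block SE 0.0981, adjusted p = 8.56e-06). HSPD1, the HSP60 barrel whose promoter window overlaps that of HSPE1, read 895 and 1516 against 797 and 1286, a difference of -0.15 (adjusted p = 0.522). HSPA9, the mitochondrial HSP70, and TRAP1, the mitochondrial HSP90, differed by -0.16 and 0.01. The small heat shock proteins HSPB8 and CRYAB differed by -0.40 and -0.13 (0.111 and 0.666), the TRiC subunits CCT3, CCT5 and TCP1 by -0.15, -0.30 and -0.21 (0.507, 0.112 and 0.275), and HSF1 by 0.07 (0.816).

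In VHL-null RCC4 no member was called at 18 h, with a block (0.486% of genes called) or without it (0%, with 51 genes at an unadjusted p under 0.05). HSPH1 read 219 and 626 at 0 h and 175 and 357 at 18 h (difference -0.50, adjusted p = 0.0821 with the block). DNAJA1 read 273 and 710 against 205 and 492 (-0.41, 0.139), HSPA4 400 and 1048 against 294 and 817 (-0.35, 0.266), and HSP90AA1 908 and 1747 against 703 and 1488 (-0.26, 0.594). HSPE1 read 238 and 668 against 223 and 492 (-0.22, 0.538). In each replicate of these 5 genes the 18 h array was the lower one, as in the VHL-restored cells. DNAJB1 and STIP1 differed by -0.22 and -0.23 (0.598 and 0.55). Over the 23 members 11 differences were positive with a median of 0, against 58.7% positive and 0.02 in all genes.

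**Figure D1:**
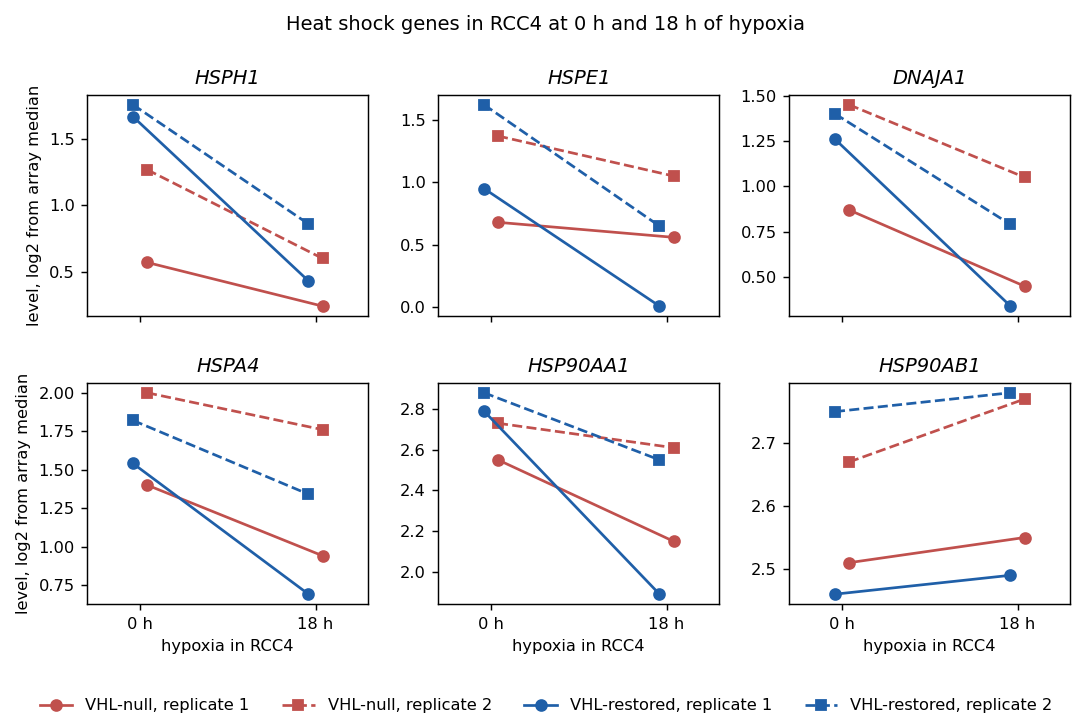
Levels (log2 from the array median) of 6 heat shock genes at 0 h and 18 h of hypoxia in RCC4, 1 line per replicate and genotype, with a separate vertical scale in each panel. The lines slope down for HSPH1, HSPE1, DNAJA1, HSPA4 and HSP90AA1 in both genotypes, by 1.07 (HSPH1) to 0.61 (HSP90AA1) on average in VHL-restored cells, while HSP90AB1 differs by 0.02 there.

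The difference of the 18 h change between the genotypes was tested as an interaction. Only HSPE1 was called, by 0.74 with the block (SE 0.139, adjusted p = 0.0185, against 0.565% of genes called, 0.0657% positive and 0.499% negative), its level falling further in the VHL-restored cells. Without the block 0 members were called (0% of genes, the smallest adjusted p of all genes being 0.404, with 45 genes at an unadjusted p under 0.05). HSPB8, HSPH1 and HSP90AA1 differed between genotypes by 0.60, 0.57 and 0.35 and were not called (adjusted p = 0.402, 0.285 and 0.875 with the block). The sign was positive, meaning a smaller fall or a larger rise without VHL, for 20 of 23 members with a median of 0.19, against 41% and -0.03 in all genes.

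When all 20 RCC4 arrays were fitted with genotype, state and array set as terms, the 18 h change was an average over both genotypes. The fit has no term for a change that differs between genotypes, so it does not show that a change is shared. The same 5 genes were the members called, all lower, against 2.96% of genes called, 1.77% higher and 1.18% lower. The differences were -0.79 for HSPH1 (SE 0.148, adjusted p = 0.0115), -0.59 for DNAJA1 (SE 0.121, 0.0174), -0.59 for HSPE1 (SE 0.137, 0.0302), -0.51 for HSPA4 (SE 0.0899, 0.00726) and -0.44 for HSP90AA1 (SE 0.104, 0.0338). DNAJB1 at -0.27 (0.152) and STIP1 at -0.19 (0.159) came next. The 5 calls became 1 with no filter on low values and 0 with no array set block. Of all called genes 60% were higher, and 47.8% after quantile normalization. With the 1 h and 4 h arrays left out the same 5 were called, with adjusted p of 0.00984 to 0.0399 and 2.56% of genes called. HSPH1 and HSPA4 were called without any 1 of the 8 replicated arrays, whereas only these 2 members were called without any 1 of the 4 VHL-restored arrays, and 3 without replicate 1 of the VHL-null cells at 18 h. HSPE1 was not called without replicate 2 of the VHL-null cells at 18 h (0.0609). This fit uses the same 0 h and 18 h arrays as the comparisons within genotype and is not a separate test of them.

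The early times have 1 array per genotype and were not tested. Set against the 0 h array of the same set, VHL-restored cells had a positive difference in 4 of 23 members at 1 h, 8 at 2 h, 6 at 4 h and 4 at 6 h, with medians of -0.25, -0.06, -0.17 and -0.07, where 59.2% to 63.5% of all genes were positive. VHL-null cells had 14, 18, 17 and 18 positive members with medians of 0.04, 0.12, 0.11 and 0.16. In all genes of the VHL-null cells 70.3%, 49.1%, 67.1% and 41.3% were positive at these times. The 2 h and 6 h arrays are those whose check genes lay between the 0 h and 18 h levels in the VHL-restored cells, and the members' medians were lower in VHL-restored cells there as well.

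HSPH1 in the VHL-restored cells read 506 at 0 h, 397 at 2 h, 346 at 6 h and 199 at 18 h in set 1. In set 2 it read 783 at 0 h, 424 at 1 h, 460 at 4 h and 396 at 18 h, so that the 1 h and 4 h arrays stood near the 18 h array, as did their check genes. In VHL-null cells it read 219, 325, 294 and 175 in set 1 and 626, 458, 551 and 357 in set 2, with the 2 h and 6 h values above that at 0 h. HSPE1 was lowest on the 1 h and 4 h arrays of set 2. Its intensity in VHL-restored cells was 711 at 0 h, 232 at 1 h, 191 at 4 h and 339 at 18 h in set 2, and 301, 263, 260 and 145 at 0, 2, 6 and 18 h in set 1. The VHL-null cells showed the same order in set 2, with 668, 344, 317 and 492, and read 238, 242, 309 and 223 in set 1.

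Reoxygenation was compared with 18 h of hypoxia in the same fit of 20 arrays. After 1 h no member and no gene was called (0%, with 441 genes and 0 members at an unadjusted p under 0.05). HSP90AA1 and DNAJA1 differed by 0.23 each, HSF1 by 0.14 and TCP1 by 0.10 (adjusted p = 0.985 in each case). The differences were positive for 22 of 23 members with a median of 0.09, against 65.2% and 0.04 in all genes. This 1 h sign depends on the scaling. The members' median was 0.02 after quantile normalization and -0.01 without centring, and that of all genes -0.01 and -0.06. After 4 h no member was called either, against 2.63% of genes called, 0.946% higher and 1.68% lower. DNAJB1 read 450 in VHL-null and 300 in VHL-restored cells, against 621 and 524 on the 18 h arrays of the same set, and its level differed by -0.44 (SE 0.125, adjusted p = 0.0738). HSP90AA1 differed by 0.33 (0.233), HSPA9 by 0.21 (0.256) and HSPD1 by 0.14 (0.436). The 4 h sign also depends on the centring. After 4 h the members' median was 0.06 with it and -0.18 without it, while that of all genes was 0.07 and -0.17. The share of higher genes among those called was 36% and 0.559%. With the 1 h and 4 h hypoxia arrays left out 0 members were called after 1 h (0% of genes) or 4 h (2.29%), with the same medians.

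HSPH1, HSPE1, HSPA4 and DNAJA1 were still below the 0 h values on the reoxygenation arrays of the VHL-restored cells. HSPH1 read 350 and 388 at 1 h and 4 h of reoxygenation against 783 at 0 h in the same set, HSPE1 344 and 271 against 711, and HSPA4 555 and 453 against 820. The level of DNAJA1 was 0.93 and 0.58 after 1 h and 4 h, against 1.40 at 0 h, whereas that of HSP90AA1 was 2.61 and 2.91 against 2.88 and so reached its 0 h level at 4 h.

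**Figure D2:**
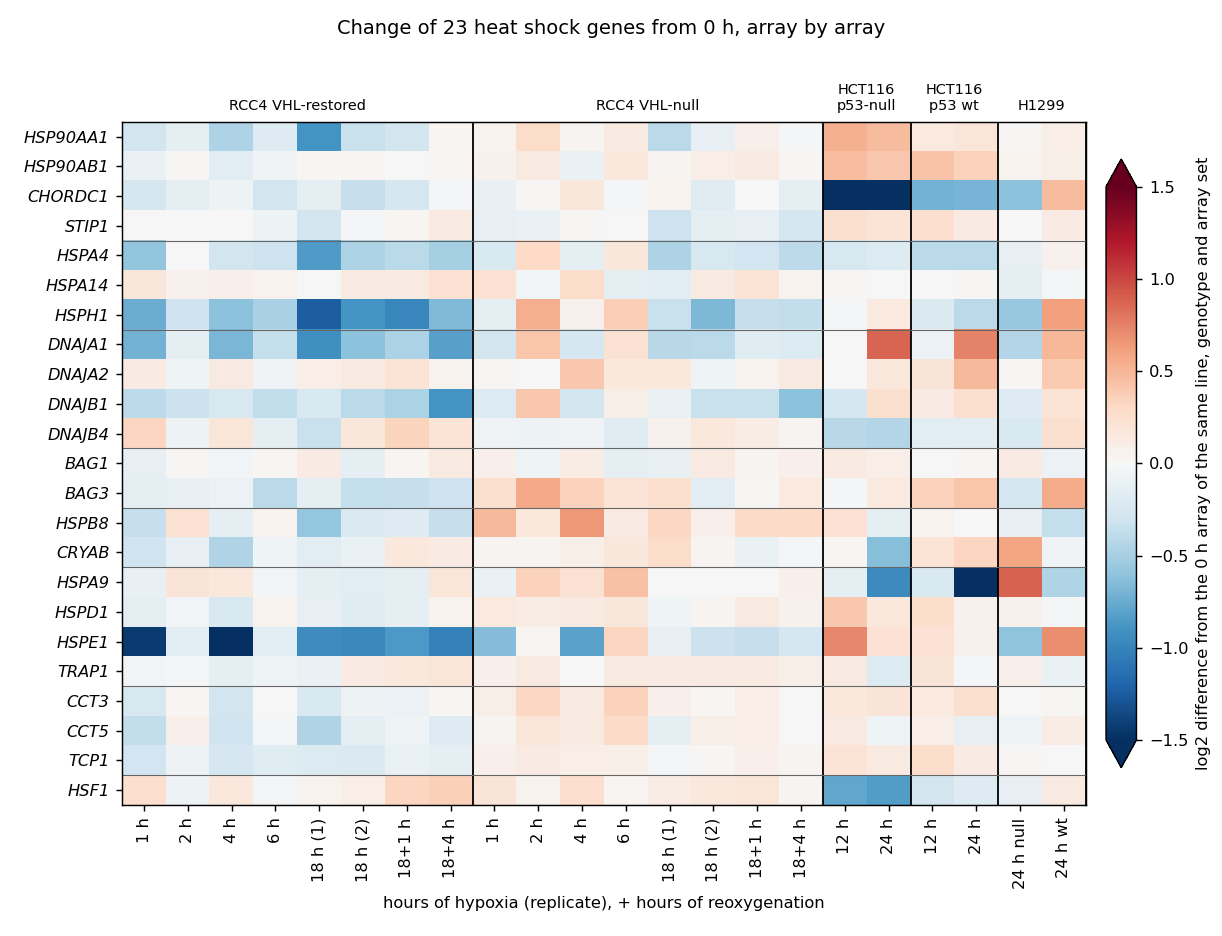
Differences in level (log2, colour scale from -1.5 to 1.5) of the 23 tested heat shock genes between each array and the 0 h array of its line, genotype and array set, 1 column per array, with genes grouped by role. Blue cells for HSPH1, HSPE1, DNAJA1 and HSPA4 fill most of the VHL-restored columns, and the HCT116 columns show CHORDC1 and HSF1 in blue and HSP90AB1 in red. The last 2 columns, from H1299, go opposite ways for most genes.

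At 0 h the VHL-null cells had lower levels of HSPH1 and of both small heat shock proteins. With the replicate block 4 of 23 members were called, all lower in VHL-null cells, against 7.51% of genes called, 3.1% higher and 4.41% lower. Without it 0 were called (0.118% of genes, 0.0131% lower), and 2 members had an unadjusted p under 0.05. CRYAB, the alpha-B crystallin that holds unfolded proteins and desmin-type filaments, read 468 and 588 in VHL-null and 768 and 893 in VHL-restored cells. The genotypes did not overlap, and the level differed by -0.70 (block SE 0.109, adjusted p = 0.000508). The hypoxia check genes were higher in VHL-null cells on the same arrays, and their part in these differences was not tested. HSPB8, which works with BAG3 in chaperone-assisted autophagy, read 124 and 291 against 197 and 447 and differed by -0.66 (block SE 0.139, 0.00622). HSPH1 differed by -0.79 (block SE 0.121, 0.000441) and the TRiC subunit CCT3 by -0.36 (block SE 0.0962, 0.03). Over the members 4 of 23 differences were positive with a median of -0.11, against 46.8% and -0.01 in all genes.

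At 18 h, 4 members were called between the genotypes with the block, against 7.59% of genes called, 3.62% higher and 3.97% lower, and 0 without it (0.0263%). HSPE1 read 223 and 492 in VHL-null against 145 and 339 in VHL-restored cells and was higher without VHL by 0.48 (adjusted p = 0.00541). HSPA9 read 149 and 442 against 117 and 303 and was higher by 0.35 (0.0339). CRYAB was lower by 0.40 (0.0307) at 587 and 561 against 667 and 796, and DNAJA2 was lower by 0.38 (0.028) at 379 and 472 against 449 and 623. CCT5 at 0.34 was not called (0.0649).

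Over all 10 pairs of RCC4 arrays matched by state, the VHL genotypes differed in 11 of 23 members, against 34.2% of all genes. This count was 7 with no filter on low values and 2 with no array set block. The share of higher genes among all called ones was 36.7%, and it was 46.2% after quantile normalization and 62.5% without centring. The 6 that were higher in VHL-null cells (12.5% of genes) were HSPA9, CCT5, HSPA4, HSPE1, DNAJA1 and DNAJB1, and the 5 that were lower (21.6% of genes) were CRYAB, DNAJA2, HSPB8, TRAP1 and CCT3. Between genotypes over both sets, 0 of 23 members were free of overlap on the level scale, against 1.55% of genes. CRYAB, DNAJA2, HSP90AB1 and TRAP1 did not overlap in set 1 (14.1% of genes), and CRYAB and CCT5 did not in set 2 (14.9%).

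CRYAB had intensities of 468 to 588 (median 511.5) on 10 VHL-null arrays and 591 to 898 (median 739) on 10 VHL-restored arrays. It was lower in 10 of 10 pairs and its levels overlapped in neither set taken alone, with a difference of -0.56 (SE 0.0715, adjusted p = 2.06e-05). HSPA9 read 144 to 478 (median 389) against 117 to 367 (median 297). It was higher in VHL-null cells in 10 of 10 pairs by 0.31 (SE 0.044, adjusted p = 6.8e-05), although the ranges overlap, also within each array set. CCT5 read 579 to 1356 (median 1131) against 449 to 1126 (median 786) and was higher in 10 of 10 pairs by 0.28 (SE 0.0537, 0.00075). HSPA4 read 294 to 1048 (median 689) against 243 to 820 (median 477.5) and was higher in 9 of 10 pairs by 0.26 (SE 0.0568, 0.00211).

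DNAJA2 read 330 to 603 (median 459.5) against 403 to 623 (median 536.5) and was lower in VHL-null cells in 10 of 10 pairs, by 0.28 (SE 0.0458, adjusted p = 0.000201). TRAP1 was lower in 10 of 10 pairs by 0.18 (SE 0.0377, 0.00213). The J-domain relatives DNAJA1 and DNAJA2 thus went opposite ways, DNAJA1 being higher without VHL by 0.24 (0.0249) in 9 of 10 pairs, and so did the mitochondrial HSPA9 and TRAP1. HSPE1 at 0.25 (0.0368), DNAJB1 at 0.18 (0.0281), HSPB8 at -0.28 (0.0233) and CCT3 at -0.15 (0.0259) had the same sign in 7 to 9 of the 10 pairs. HSPE1 was lower in VHL-null cells in both pairs at 0 h, at -0.27 and -0.25, and higher in 7 of the 8 later pairs. With the 1 h and 4 h arrays left out 9 members were called (23.7% of genes). HSPE1 (0.17, adjusted p = 0.193), DNAJA1 (0.18, 0.138) and DNAJB1 (0.20, 0.0543) were then not called, and HSPH1 was (-0.32, 0.0253).

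**Figure D3:**
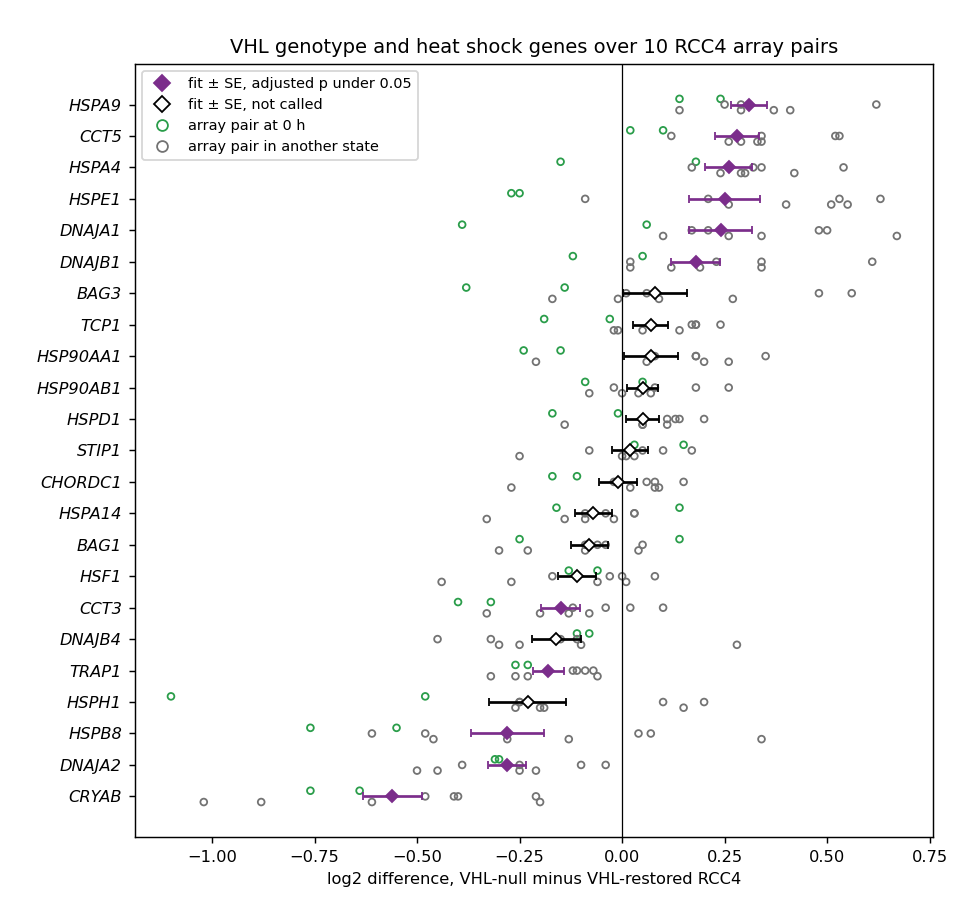
Differences in level (log2, VHL-null minus VHL-restored RCC4) of the 23 genes over 10 array pairs matched by state and replicate. Circles are single pairs, green at 0 h, and diamonds with bars are the fitted difference ± SE, filled purple where the adjusted p was under 0.05, from 0.31 for HSPA9 at the top to -0.56 for CRYAB at the bottom.

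In HCT116, hypoxia came with a higher level of HSP90AB1 on all 4 hypoxic arrays, and with lower signals of CHORDC1 and HSF1 that did not pass the test. The comparison of 12 h and 24 h together with 0 h, with p53 genotype as a block, was added after the data had been seen. HSP90AB1 read 742, 1020 and 1001 at 0, 12 and 24 h in p53 null cells and 725, 961 and 902 in p53 wild-type cells. All hypoxic values lay above both 0 h values, and the level rose by 0.41 (SE 0.0606, adjusted p = 0.0496), the only member called, against 1.44% of genes called, 0.932% higher and 0.512% lower. The share of higher genes among those called was 64.5%, and 51.6% after quantile normalization. Leaving out any 1 of the 6 arrays took the adjusted p to between 0.0918 and 0.218. HSP90AA1 read 892, 1292 and 1266 and 954, 1040 and 1056 and differed by 0.34 (0.141).

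CHORDC1, a zinc-binding co-chaperone of HSP90, read 1884, 558 and 512 in p53 null cells and 992, 589 and 592 in p53 wild-type cells. Each hypoxic array lay below both 0 h arrays, and the difference was -1.24 (SE 0.238, adjusted p = 0.0805). HSF1 read 1488, 850 and 825, and 1032, 827 and 880, a difference of -0.53 (0.13). The p53 null array at 0 h was the highest of the 6 for both genes, and HSF4, another heat shock factor, also had its highest HCT116 value there, 1579 against 912 to 1042 on the other 5. HSPA4 differed by -0.32 (0.0941) and DNAJB4, a J-domain protein, by -0.30 (0.13).

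DNAJA1 and HSPA9 had different values at 12 h and 24 h in HCT116. DNAJA1 read 195, 194 and 371 in p53 null and 166, 152 and 282 in p53 wild-type cells, near its 0 h value at 12 h and above it at 24 h. HSPA9 read 106, 95 and 47, and 130, 106 and 21, with the 24 h arrays lowest. In the 8 arrays of H1299 and HCT116 at 0 h and 24 h no member was called (0% of genes, with 427 genes at an unadjusted p under 0.05). The largest test statistics there were those of DNAJA2 (0.27), HSP90AB1 (0.23), HSP90AA1 (0.19) and HSPB8 (-0.15), with an adjusted p of 0.654 in each case. With H1299 left out, DNAJA1 was called at 24 h in HCT116 with a rise of 0.80 (SE 0.097, adjusted p = 0.045, against 1.58% of genes).

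**Figure D4:**
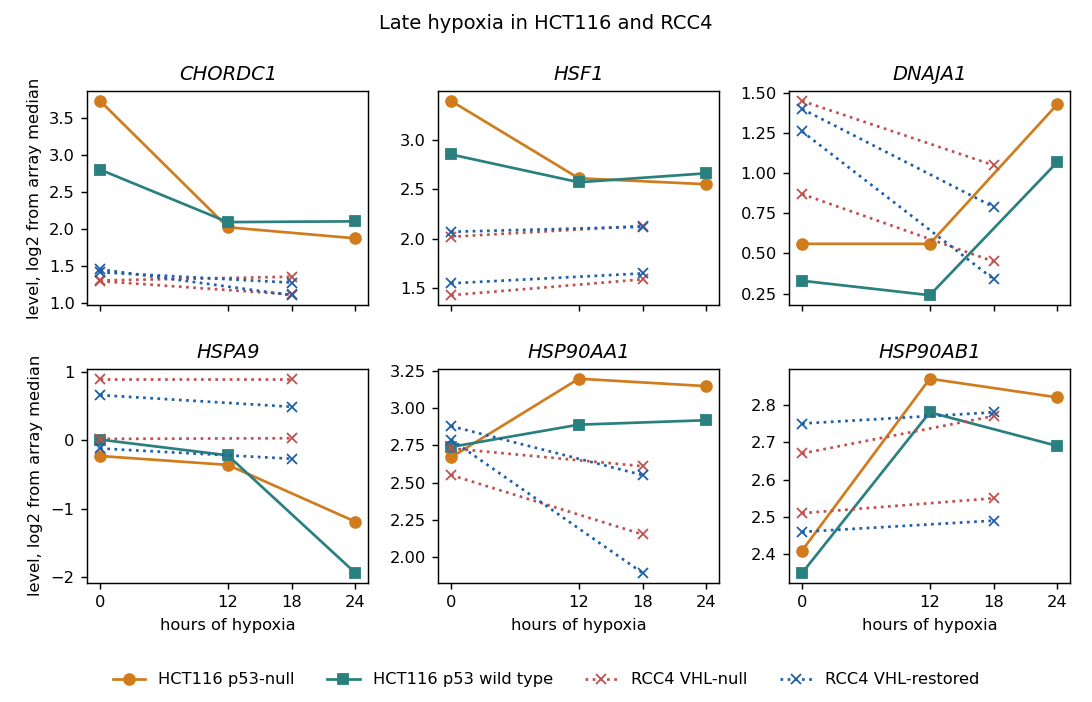
Levels (log2 from the array median) of 6 heat shock genes against hours of hypoxia in HCT116 (solid lines, 1 array per point) and in RCC4 replicates at 0 h and 18 h (dotted lines), with a separate vertical scale in each panel. DNAJA1 ends higher in HCT116 and lower in RCC4, and HSPA9 is lowest at 24 h in HCT116.

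The late change was set against that of RCC4 in a comparison also added after the data had been seen, in which the times differ (24 h in HCT116, 18 h in RCC4) and so cannot be told apart from the lines. It was different for 6 of 23 members, 3 positive and 3 negative, against 6.08% of genes called, 1.83% positive and 4.26% negative. DNAJA1 changed by 1.39 more in HCT116 (SE 0.164, adjusted p = 0.00187), where it was higher than at 0 h on both 24 h arrays and lower than at 0 h in all 4 RCC4 replicates. HSP90AA1 changed by 0.77 more (SE 0.186, 0.0383) and DNAJB1 by 0.51 more (SE 0.113, 0.028). HSPA9 changed by -1.38 (SE 0.212, 0.00565), CHORDC1 by -1.13 (SE 0.248, 0.0266) and HSF1 by -0.63 (SE 0.154, 0.0407) relative to RCC4. HSPA9 was dim in HCT116, where its mean log2 of 6.51 lay under the filter limit of 6.8. Of all called genes 30% were positive, and 44.8% after quantile normalization and 41.2% without centring. Leaving out 1 array at a time left 2 to 5 members called. Without the HCT116 p53 null array at 0 h, or without that at 24 h, CHORDC1 differed by -0.55 (0.0901), HSF1 by -0.30 (0.284), HSP90AA1 by 0.61 (0.202) and DNAJB1 by 0.51 (0.0976), and DNAJA1 and HSPA9 were still called. Counts of 3 were reached without either 0 h replicate of VHL-null RCC4 and without replicate 2 of VHL-restored RCC4 at 0 h or at 18 h.

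In H1299 several members went opposite ways in the 2 genotypes at 24 h. HSPH1 read 503 at 0 h and 330 at 24 h in p53 null cells, and 330 and 515 in the cells labelled p53 wild type. HSPE1 read 410 and 263 against 271 and 453, DNAJA1 554 and 401 against 372 and 535, and CHORDC1 1051 and 676 against 598 and 844. Each of these 4 genes was highest on the p53 null 0 h and p53 wild-type 24 h arrays. The sign was opposite in 15 of 23 members (65.2%), a share near the 61.8% of all tested genes, and the same in the other 8.

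For late hypoxia over 6 backgrounds, which includes H1299, 0 members were called (0% of genes, with 925 genes and 3 members at an unadjusted p under 0.05), and also 0 with H1299 left out (0%). The largest statistics were those of HSPA4 (-0.28, adjusted p = 0.395), DNAJA2 (0.20, 0.401), HSP90AB1 (0.17, 0.401) and CHORDC1 (-0.50, 0.423). For p53 wild type against null in both lines, 0 members were called (0% of genes, with 526 genes and 1 member at an unadjusted p under 0.05). CCT3 and DNAJB1 differed by -0.15 each, CRYAB by 0.26 and HSPB8 by 0.14, with an adjusted p of 0.721 for CCT3. In HCT116 alone the p53 comparison also called 0 members, against 0.0263% of genes.

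Chaperones of the endoplasmic reticulum and the remaining cytosolic and mitochondrial chaperones were read from 2 further lists, of which 11 of 18 and 21 of 39 genes were tested. The calls of these lists at 0 h and 18 h also rest on the replicate block: without it 0 genes of either list were called in any of those comparisons. In VHL-restored RCC4 at 18 h, with the block (6.58% of genes called), 2 endoplasmic reticulum genes rose and 0 fell: HERPUD1, a membrane protein of the degradation machinery, by 0.97 (adjusted p = 1.9e-05) and HSPA5, the HSP70 of that compartment, by 0.56 (0.00463). From the other list CCT6A, a TRiC subunit, fell by 0.48 (0.00435) and DNAJC2, a ribosome-associated J-domain protein, by 0.52 (0.0209), and 0 rose. In VHL-null cells none of either list was called at 18 h, with HERPUD1 at 0.47 (0.0683) and DNAJC7 at -0.36 (0.175) closest, PDIA6 at 0.18 and CLPP at 0.19. No gene of either list was called for the interaction: HSPA5 was at -0.58 (0.169), HERPUD1 at -0.50 (0.276), DNAJC7 at -0.28 and CLPB at 0.20. Averaged over both genotypes, HERPUD1 rose (0.72, 0.00311) and DNAJC2 (-0.47, 0.018) and CCT6A (-0.33, 0.0242) fell, with PDIA6 at 0.21. The same 3 genes were called with the 1 h and 4 h arrays left out.

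Between the VHL genotypes none of these genes was called at 0 h, CCT6A at -0.31 (0.061) and DNAJB11 at -0.32 being closest, with PDIA6 at -0.22 and CDC37 at -0.23. At 18 h, with the block (7.59% of genes called), 4 of 11 endoplasmic reticulum genes were lower in VHL-null cells, with HSPA5 at -0.83 (0.000128) and HERPUD1 at -0.77 (0.000195), and 0 of 21 of the other list differed, with BAG5 at -0.44 (0.0531) and CLPP at 0.16. Over all states 5 of 11 were lower and 0 higher (HERPUD1 at -0.47, 7.09e-05, and DNAJB11 at -0.41, 0.000258), and of the other list 4 of 21 were lower and 1 higher (DNAJC2 at -0.34, 0.000463, and CCT8 at 0.24, 0.000226), against 34.2% of all genes. With the 1 h and 4 h arrays left out these counts were 4, 0, 3 and 1. At reoxygenation 0 of either list were called, with DNAJC3 at 0.35, HSPA5 at 0.26, SUGT1 at 0.39 (0.584) and DNAJC2 at 0.28 (0.84) after 1 h, and DNAJC3 at 0.51, DNAJB11 at 0.39, CLPB at -0.62 (0.0522) and BAG5 at -0.51 after 4 h. CLPB was called lower after 4 h with the 1 h and 4 h hypoxia arrays left out.

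In HCT116 at 12 h and 24 h, 6 of 11 endoplasmic reticulum genes rose, against 110 of 7614 genes called, 71 of them higher. Among the 6 were DNAJC3 (1.34, adjusted p = 0.00784) and CALR (0.62, 0.0144). All 11 were positive with a median of 0.84, against 60.6% and 0.04 in all genes, while the 23 heat shock members had a median of 0.06. Fits without single arrays were not read for this list. Of the other list 0 were called, with CDC37 at 0.28 (0.1) and HSF4 at -0.41 (0.24). For the late change in HCT116 minus RCC4, 463 of 7614 genes were called, 139 of them positive. Of the endoplasmic reticulum genes 5 of 11 were higher (DNAJB11 at 1.04, 0.00436, and PDIA6 at 0.73, 0.00748). From the other list 0 were called (HSF4 at -0.53, 0.112, and DNAJC7 at 0.37, 0.175). Late hypoxia over 6 backgrounds called 0 genes of either list, with SDF2L1 at 0.41 and ERO1A at 0.29 from the first, and CLPP at 0.12 and DNAJC2 at -0.29 from the second. So did 24 h in H1299 and HCT116 (ERO1A at 0.35, SERPINH1 at 0.17, UNC45A at 0.15 and CLPB at 0.14) and p53 (DNAJB11 at 0.21, ERO1A at 0.10, CLPB at 0.16 and DNAJA4 at -0.12). With H1299 left out, 5 endoplasmic reticulum genes rose at 24 h in HCT116 (PDIA6, DNAJB11, DNAJC3, HERPUD1 and ERO1A), against 1.58% of genes called, and the other counts remained 0.

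In oxygen, the arrays labelled 0 h, the lines differed in many members, as they did in many genes. RCC4 differed from HCT116 in 13 of 23 members (6 higher, 7 lower), against 60.3% of genes (17.4% higher, 42.9% lower), and from H1299 in 11 (3 higher, 8 lower), against 55.4% (15.5% higher, 39.9% lower). These shares are near the background. The RCC4 mean joins both array sets and the other lines lie in set 1 only, and within set 1 the counts were 6 (35.9% of genes) and 10 (31.5%). The scaling sets the balance of signs: the median gene differed by -0.21 between RCC4 and HCT116 with centring, by -0.06 after quantile normalization and by 0.27 without centring, and by -0.20, -0.06 and 0.26 between RCC4 and H1299. Of all called genes 28.9%, 43.9% and 84.2% were higher in RCC4 than in HCT116 under these 3 scalings, and 27.9%, 42% and 85.6% higher than in H1299. The members called against HCT116 within set 1 were CRYAB, HSPE1, DNAJA2, HSF1, CHORDC1 and TRAP1.

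CRYAB stood furthest apart. It read 468 and 588 on the VHL-null and 768 and 893 on the VHL-restored RCC4 arrays at 0 h, 86 and 76 on the p53 null and wild-type arrays of HCT116, and 49 and 86 on those of H1299. No RCC4 value came near those of the other lines, and the level was 5-fold higher than in HCT116 and 6.04-fold higher than in H1299. CRYAB reached the level of the filter on low values in RCC4 only (mean log2 of 9.31, against 6.57 in HCT116 and 6.48 in H1299 and a limit of 6.8), so its place among the tested genes already rests on RCC4. With all 12690 genes tested and no filter, the adjusted p was 0.00476 and 0.00358. In the same order of arrays, HSPE1 read 238, 668, 301 and 711 in RCC4, 106 and 97 in HCT116, and 410 and 271 in H1299. HCT116 was below both other lines, RCC4 exceeding it 2.73-fold (0.00359), and HCT116 minus H1299 was -1.55 (0.0175). HSF1 read 623 to 698 on the 4 RCC4 arrays, 1488 and 1032 in HCT116, and 1069 and 897 in H1299, and was lower in RCC4 by 1.36 and 1.00 (0.00376 and 0.00997).

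CHORDC1 read 372 to 631 in RCC4, 1884 and 992 in HCT116, and 1051 and 598 in H1299, and RCC4 differed from HCT116 by -1.90 (adjusted p = 0.01). DNAJA2 read 330 to 590 in RCC4 and 164 to 199 in the other lines, without overlap, and was higher in RCC4 by 0.76 and 0.82 (0.00931 and 0.00814). HSP90AA1 read 1532 and 1556 in H1299 and was lower than there by 0.68 in RCC4 (0.00334) and by 0.71 in HCT116 (0.0164). DNAJA1 read 273, 710, 377 and 606 in RCC4, 195 and 166 in HCT116 and 554 and 372 in H1299. It was higher in RCC4 than in HCT116 by 0.80 (0.0196), and HCT116 minus H1299 was -1.24 (0.0295). BAG3 was higher in RCC4 than in HCT116 by 0.41 and than in H1299 by 0.49 (0.0394 and 0.0253). Within set 1 the differences were -0.04 and 0.04 (0.804 and 0.845), and neither was called. Without the H1299 array labelled p53 wild type, the difference of BAG3 from H1299 was 0.38.

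Smaller differences were also called. RCC4 was lower than HCT116 in HSPA14 (-0.33), BAG1 (-0.41), STIP1 (-0.30), TRAP1 (-0.41) and DNAJB4 (-0.53) and higher in HSP90AB1 (0.22). Without centring HSPA14, BAG1, STIP1 and TRAP1 changed sign. RCC4 was lower than H1299 in HSPD1 (-0.53), STIP1 (-0.50), TCP1 (-0.54), HSPA14 (-0.36), BAG1 (-0.48) and CCT5 (-0.35). Of these, HSPA14 and CCT5 changed sign without centring. Within set 1 HSPA14 (-0.14, adjusted p = 0.297) and BAG1 (-0.29, 0.088) were not called against H1299, and the others of these were. HCT116 was lower than H1299 in 6 members, against 6.2% of genes called and 3.6% called lower: HSP90AA1, HSPE1 and DNAJA1 as given above, TCP1 (-0.64), CCT5 (-0.55) and HSPD1 (-0.47). Without the H1299 array labelled p53 wild type, 2 of the 6 were called (3.68% of genes), HSPE1 at -1.83 and DNAJA1 at -1.52, and RCC4 differed from H1299 in 14 members (44.3%). The number called between RCC4 and HCT116 was 6 without HCT116 p53 wild type, 7 without VHL-restored RCC4 and 8 without HCT116 p53 null, and that between HCT116 and H1299 was 0 without either HCT116 genotype and 2 without H1299 p53 null.

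In the further lists, SEL1L, an adaptor of the degradation machinery, was lower in RCC4 than in HCT116 and H1299 by 1.06 and 1.03, and SERPINH1, the collagen chaperone, was higher by 0.29 and 0.32. CLPB, a mitochondrial disaggregase, was lower by 1.24 and 1.03 than in these lines, and DNAJA4 by 0.88 than in HCT116. HSBP1, which binds HSF1, was higher by 1.87 in RCC4 and by 1.69 in HCT116 than in H1299. HCT116 also exceeded H1299 in DNAJA4 by 0.71, and CALR (-0.33) and PDIA6 (-0.58) were not called there. Without the H1299 array labelled p53 wild type, SEL1L, SERPINH1, CLPB and HSBP1 were still called against H1299, and so were HSBP1 and DNAJA4 between HCT116 and H1299. HSPA5 and HERPUD1 were then also higher in HCT116.

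**Figure D5:**
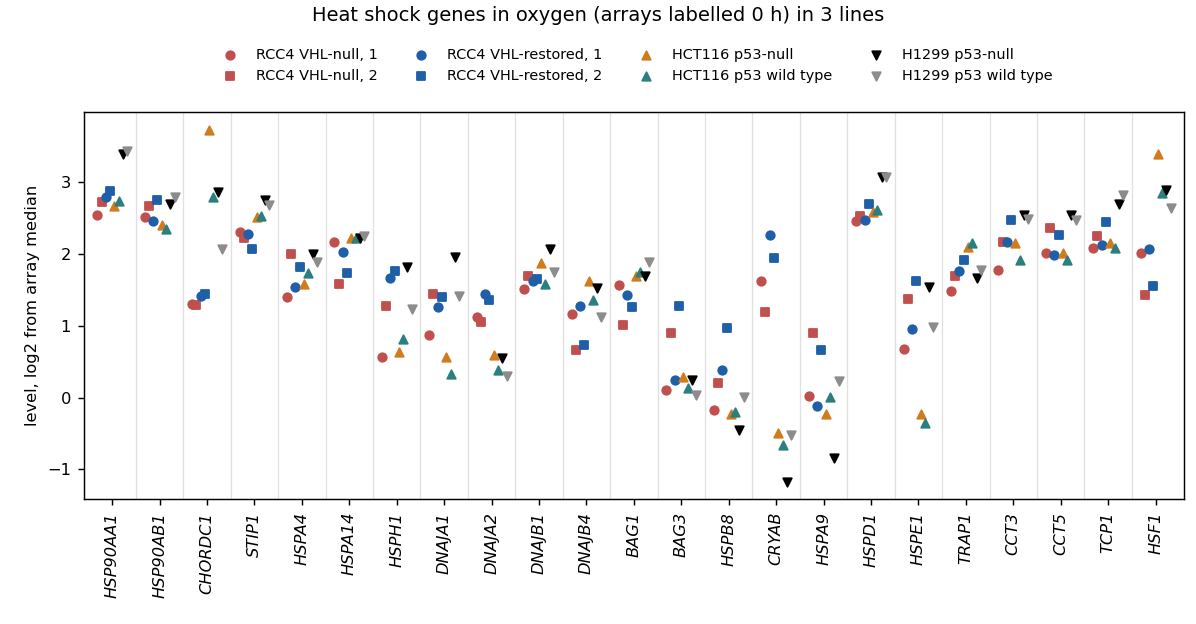
Levels (log2 from the array median) of the 23 genes on the 8 arrays labelled 0 h, grouped by role, with 1 symbol per array. CRYAB is high on all 4 RCC4 arrays, where it was 5-fold above HCT116, HSPE1 is lowest in HCT116, and CHORDC1 and HSF1 are highest on the HCT116 p53 null array.

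The dim members add little. HSPA1L read 55 to 158 and HSPA6, which is strictly heat-inducible, 60 to 168 over the 30 arrays. HSPA2, an HSP70 best known from testis, read at most 66 and was null on 2 arrays, and DNAJA3, a mitochondrial J-domain protein, was null on 29 arrays. Of the tested members DNAJA2, BAG1 and CCT5 had more than 1 probe set: the second DNAJA2 probe set read 108 to 575 beside 164 to 623, while those of BAG1 and CCT5 were null on 17 and 15 arrays. Several members have close relatives or processed pseudogenes, and which transcripts each probe set reads is not stated in the sources used here.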

How the data were processed

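The authors deposited 1 table per array of probe set intensity values, linear and in whole numbers; per the labels these came from the Affymetrix protocol, and the scaling, the software and the meaning of null are not given in the sources used here. Null entries made up 18.4% to 40.4% of the 35357 probe sets of an array and were taken as 0. Probe sets were named through GEO's platform annotation (17478 annotated, 16905 with 1 symbol, 573 with several). Values were taken as log2(value + 16) and centred on each array's median gene, since array medians spanned 0.903. The brightest probe set gave each of 12690 genes, of which 7614 were tested.

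Tests used limma 3.58.1 in R 4.3.3 (lmFit, then eBayes, two-sided). P-values were adjusted by Benjamini and Hochberg's method across all 7614 genes and called under 0.05. Fits of hypoxia were run on simulated data with independent noise and no array set, line or genotype effect. The fit with the replicate block was not simulated, so this check does not bear on the calls made with it. Other steps used Python 3.11.15 with pandas 2.3.3 and matplotlib 3.10.9. The 8 replicated RCC4 arrays were fitted by group, with the replicate number as a block beside it, all 20 RCC4 arrays with genotype, state and array set, and the other lines with line, genotype or time as blocks. Genotypes and times there stand in for replicates. Replicate differences correlated at 0.794 to 0.916 between the 6 pairs of groups (0.749 to 0.888 over the members), so the numbers mark a shared difference, which at 0 h and 18 h is also the array set. The members and lists were chosen with earlier results of these data known. Named are every member called in any comparison, the 4 with the largest limma statistic in each, the dim members by range, and the 2 leading genes of each further list. Alternatives changed the pseudocount, scaling, filter, null entries, probe sets, prior variance, block and single arrays. The number of arrays limits the precision.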

Additional observations from a re-analysis of the deposited data

Results flagged for a closer look

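A test of the difference between groups singled out 7 values. The 18 h change of HSPE1 differed between the VHL genotypes by 0.74 with the replicate block, its intensity reaching 145 and 339 at 18 h in VHL-restored cells and 223 and 492 in VHL-null cells. The late change differed between HCT116 at 24 h and RCC4 at 18 h, as HCT116 minus RCC4, by 1.39 for DNAJA1, 0.77 for HSP90AA1, 0.51 for DNAJB1, -0.63 for HSF1, -1.13 for CHORDC1 and -1.38 for HSPA9. Lines and times cannot be told apart in the last 6.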

How the results depend on the processing

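Of 261 counts of called members under alternatives, 217 stayed within 1.5 times their value and 44 did not. Counts of 0 that stayed at 0 are among the 217. For the 8 replicated RCC4 arrays the other alternatives were run without the replicate block. The calls made with the block were therefore not put through them. A further 1298 values were of single genes or of the members' median difference in a comparison, and 1035 of them stayed the same. A gene called only with the block counts there as the same where it stayed uncalled without it. Among the single genes 191 lost the call, 14 gained it and 10 reversed. The 48 that moved were medians, which shifted by more than the standard deviation between array pairs. With the replicate block the counts were 5 for 18 h in VHL-restored RCC4, 1 for the interaction, 4 for VHL at 0 h and 4 at 18 h, each 0 without it. For 18 h averaged over both genotypes the count of 5 became 1 with no filter on low values and 0 with no array set block. That of 11 for VHL over all states became 7 and 2. For 4 h of reoxygenation it was 4 without centring and 1 with no filter, against 0. For 24 h in H1299 and HCT116 it was 1 with H1299 left out, for RCC4 against H1299 7 without centring, and for RCC4 against HCT116 6 within array set 1. For HCT116 at 12 h and 24 h the count of 1 became 2 with a pseudocount of 64, quantile normalization or a variance trend, and 0 without centring or with no filter. For HCT116 minus RCC4 the count of 6 became 3 without centring and 1 with no filter. Leaving out single arrays or backgrounds gave 2 to 5 (18 h averaged over genotypes) and 8 to 12 (VHL over all states). The counts were 6 to 14 (RCC4 against HCT116), 10 to 14 (RCC4 against H1299) and 0 to 4 (HCT116 against H1299). They were 0 to 2 (HCT116 hypoxia) and 2 to 5 (HCT116 minus RCC4). In the other comparisons they were 0, as was the main count without the block. HSPA9 for VHL at 18 h reversed without the block when single arrays were left out, from -0.09 to 0.78, being negative without VHL-null replicate 2 (-0.09) or VHL-restored replicate 1 (-0.03). Without centring, RCC4 against HCT116 gave HSPA14 0.15, BAG1 0.07, STIP1 0.18 and TRAP1 0.07, and RCC4 against H1299 gave HSPA14 0.10 and CCT5 0.10. CCT5 against H1299 was 0.32 with the mean of its probe sets, the second of which was null on 15 arrays, and BAG3 against HCT116 was -0.04 within array set 1. The causes were not tested. Leaving out H1299 or the 1 h and 4 h arrays, and the 2 comparisons of HCT116, were chosen after seeing the data. Single arrays per time limit every early and late value outside RCC4 at 0 h and 18 h.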
